A study of Rattus norvegicus with 16 samples.

Results

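Of the 848 regions of SRF enrichment that the authors merged over 7 ChIP-seq libraries of rat oligodendrocyte-lineage cells, 457 (53.9%) lay at promoters of protein-coding genes. A region was counted as a member when the gene nearest to it in the deposited annotation was protein coding and the region's centre lay within 1000 bp of that gene's transcription start site (TSS). No read value entered this choice. The members were assigned to 438 gene names, and 19 genes had 2 member regions each. The remaining 391 regions, called the other regions here, included 270 assigned to a protein-coding gene but farther than 1000 bp from its TSS and 42 within 1000 bp of the TSS of another gene type.

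SRF (serum response factor) was precipitated from primary cultures of WT rat brain at a pair of stages. OL libraries (oligodendrocytes, n = 3, replicates 1, 2 and 4) came from cells fixed on day 3 in differentiation medium. OPC libraries (oligodendrocyte precursor cells, n = 4, replicates 1 to 4) came from cells fixed at the proliferation stage after 6 days in culture, and each preparation of immunopanned precursors was divided between the stages. IgG controls comprised 1 OL and 1 OPC library, and input chromatin of each SRF library was used by the authors for peak calling. The cultures are named by their stage in the labels, and chromatin immunoprecipitation of a transcription factor does not measure expressed markers, so the stage was not checked against markers.

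SRF is a MADS-box transcription factor that binds DNA as a dimer at the CArG box, an A/T-rich stretch between a CC and a GG. It acts with MRTF cofactors, which respond to the state of actin, or with ternary complex factors of the ETS family, which respond to MAP kinase signalling. Its known targets are immediate early genes and genes of the actin cytoskeleton, and in oligodendrocytes actin assembly accompanies the early outgrowth of processes.

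The members' gene names were matched to RefSeq promoter sequences of assembly GRCr8, each 250 bases before to 50 bases after a TSS. Of the 457 regions, 438 (95.8%) matched a protein-coding gene, and 375 promoters of 361 member genes were in the table. Members at Actb, Arc, Cap1, Egr3, Fermt2, Fos, Ints9 and Maf1 had no promoter there. The first set of sequences shows the CArG boxes of the 6 named members with the most reads whose promoter holds one. Capitals mark each CArG box, and each stretch runs 5′ to 3′ on the gene's strand in GRCr8.
Egr1 (chr18:26736943-26737012, plus strand): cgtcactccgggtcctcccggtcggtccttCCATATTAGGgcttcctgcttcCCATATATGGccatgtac
Egr2 (chr20:21054485-21054554, minus strand): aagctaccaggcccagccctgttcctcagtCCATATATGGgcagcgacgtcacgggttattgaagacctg
Fam53c (chr18:26638716-26638780, plus strand): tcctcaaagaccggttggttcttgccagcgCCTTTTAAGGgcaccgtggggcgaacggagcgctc
Dusp5 (chr1:262543672-262543741, plus strand): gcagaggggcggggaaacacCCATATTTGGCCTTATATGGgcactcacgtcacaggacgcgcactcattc
Srf (chr9:21923985-21924054, plus strand): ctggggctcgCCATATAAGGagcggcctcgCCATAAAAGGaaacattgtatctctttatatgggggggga
Cnn2 (chr7:10370344-10370413, minus strand): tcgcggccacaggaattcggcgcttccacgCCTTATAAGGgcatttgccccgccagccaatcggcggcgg
Egr1, Dusp5 and Srf each held 2 CArG boxes in the stretch shown. Egr1 and Egr2 encode zinc finger factors of the immediate early response, Dusp5 a phosphatase that inactivates ERK, and Cnn2 the actin-binding protein calponin 2.

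A 7-base word, ACTACAA, was far more frequent in the member promoters than the CArG box. It is the core of the element bound in mammals by ZNF143 and by THAP11, and it was searched after the member genes had been seen. The next set shows it, in capitals, in the 6 members with the most reads whose promoter holds it, read as TTGTAGT where the word lies on the opposite strand.
Prcc (chr2:175649866-175649914, minus strand): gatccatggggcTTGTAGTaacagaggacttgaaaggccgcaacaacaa
Ccdc90b (chr1:156045012-156045078, plus strand): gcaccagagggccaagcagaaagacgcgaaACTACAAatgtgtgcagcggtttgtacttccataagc
Fam168a (chr1:164469280-164469346, plus strand): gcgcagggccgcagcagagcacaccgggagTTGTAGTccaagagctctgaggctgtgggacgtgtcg
Dffa (chr5:164823667-164823733, plus strand): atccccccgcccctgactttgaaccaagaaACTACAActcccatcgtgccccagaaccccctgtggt
Bod1 (chr10:16497871-16497917, plus strand): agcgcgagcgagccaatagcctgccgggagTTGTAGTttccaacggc
Tmem115 (chr8:117085987-117086053, plus strand): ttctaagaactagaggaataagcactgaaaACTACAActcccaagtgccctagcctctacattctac
Prcc encodes a protein associated with pre-mRNA splicing, Dffa the inhibitor of the nuclease that cuts DNA in apoptosis, Bod1 a regulator of chromosome orientation in mitosis and Tmem115 a Golgi membrane protein.

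The member with the most reads, Gsk3a, held neither a CArG box nor the 7-base word in its window. Its promoter is shown from 250 bases before the TSS to the last base before it, and capitals mark bases covered by any of the 30 words of 7 bases with the greatest excess in member promoters.
Gsk3a (chr1:89953515-89953764, minus strand): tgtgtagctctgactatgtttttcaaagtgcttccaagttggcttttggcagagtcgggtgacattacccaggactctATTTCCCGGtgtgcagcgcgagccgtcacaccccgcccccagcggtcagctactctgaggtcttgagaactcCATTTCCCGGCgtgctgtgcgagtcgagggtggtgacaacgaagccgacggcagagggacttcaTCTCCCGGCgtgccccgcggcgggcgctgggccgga
The capitals cover 29 bases in 3 stretches that start 172, 100 and 36 bases before the TSS, and all of them contain TCCCGG.

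In the 375 member promoters, ACTACAA on either strand was present in 118 (31.5%), against 3.66% of all 21842 protein-coding promoters of the same length. Its first 6 bases, ACTACA, were present in 53.1% of member promoters and 10.9% of all promoters. Of 8192 words of 7 bases (each counted with its reverse complement), ACTACAA had the largest difference in share between member promoters and all promoters. By ratio it was the second of the 7390 words present in at least 1% of promoters, at 8.60. The next 4 words by difference, with GACTACA at the head, overlap it.

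The CArG box was present in 17 member promoters (4.53%), against 1.61% of all promoters. With 1 mismatch allowed in its inner bases, the shares were 12.3% and 9.22%. The 17 genes were Actg1, Capn15, Cnn2, Dusp5, Ebf3, Egr1, Egr2, Fam53c, Gpr108, Gstp1, Ing2, Irf3, LOC102551071, Ndufs3, Pitpna, Rnd3 and Srf. Capn15, which encodes a calpain-family protease, was the 1 promoter with both the CArG box and ACTACAA, and 241 promoters (64.3%) had neither. The regions record DNA recovered with the SRF antibody, and whether SRF contacts DNA directly at promoters with ACTACAA and no CArG box was not tested.

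The measured gaps from word to region differed between the words, within the limits of the window searched. Matches to ACTACAA in member promoters had a median position 96 bases before the TSS (quartiles −147 and −55), and the median gap from the match to the region's centre, each measured from its own TSS, was 47 bp. For the CArG box the median position was 72 bases before the TSS, and the median gap was 173.5 bp over 17 promoters. The regions' distances are in Rnor_6.0 and the matches in GRCr8, so a gap also holds any shift of the annotated TSS between builds. Among the 255 member promoters whose window held the region's centre, 39.2% had ACTACAA and 3.53% a CArG box.

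ACTACAA was also more frequent where the members had more reads. Its share was 42.3% in the quartile of members with the most reads, 34.5% and 24.1% in the next quartiles, and 25.3% in the quartile with the fewest. The CArG box had shares of 6.19%, 4.60%, 2.78% and 4.82% in the same order, each from 3 to 6 promoters. The BANP element TCTCGCGA was found in 5.15% of promoters in the top quartile, 1.87% of all member promoters and 1.19% of all promoters.

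Other promoter words gave smaller differences, and some were rarer in member promoters. The ETS word CCGGAAGT was present in 8.80% of member promoters and 4.78% of all promoters, the SP/KLF word GGGCGG in 56.3% and 41.8%, the YY1 word AAGATGGC in 6.93% and 3.68%, and the NRF1 word GCGCATGC in 5.33% and 3.11%. CCAAT was present in 41.3% and 38.0%, and the CRE word TGACGTCA in 2.13% and 2.10%. TATAAA was present in 4.53% of member promoters and 13% of all promoters, and the AP-1 word TGANTCA in 3.20% and 6.53%. Member promoters had a median GC content of 58.7%, against 55.0% in all promoters, and a median of 20 CpG sites, against 11. The TSS of another RefSeq gene, not limited to protein-coding genes, lay on the opposite strand up to 1000 bp upstream for 21.3% of member promoters and 10.5% of all promoters. Over the quartiles of members by reads, in falling order, median GC was 57.7%, 58.7%, 60.3% and 58.0%. The median of CpG sites was 20, 21, 20 and 19 in the same order. The part of composition in the excess of any word over all promoters, or in its change over the quartiles, was not tested.

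**Figure D1:**
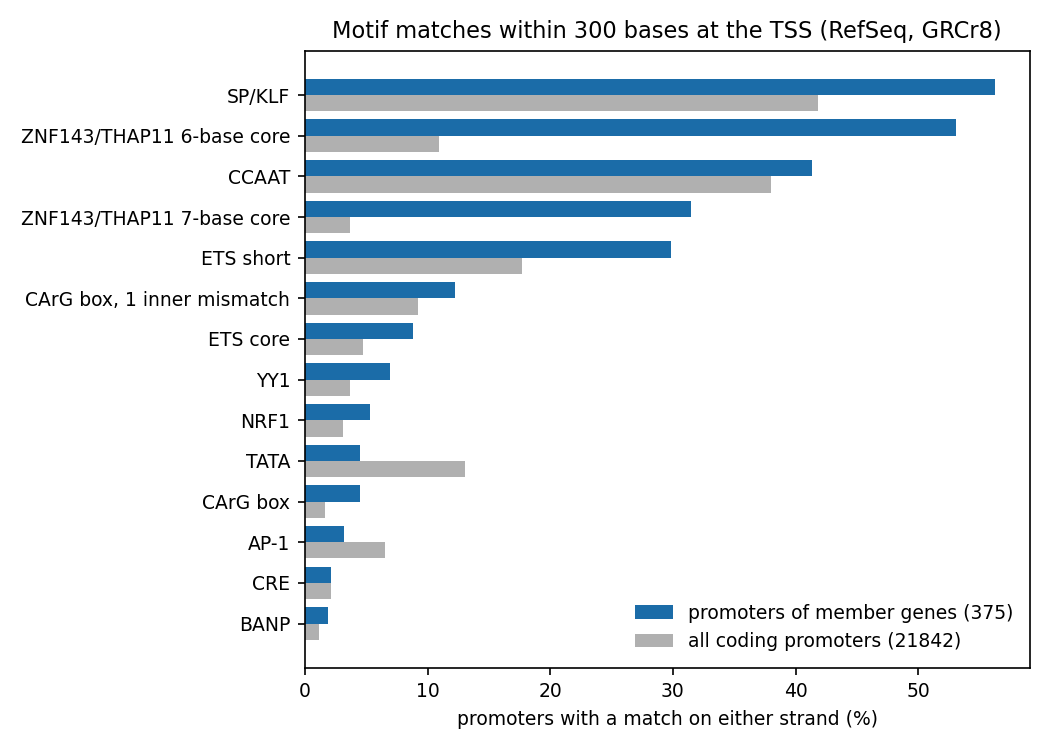
Share of promoters (percent, horizontal axis) with a match to each word on either strand, in 375 promoters of member genes (blue, upper bar) and in all 21842 protein-coding promoters of RefSeq GRCr8 (grey, lower bar). The 7-base ZNF143/THAP11 core stands at 31.5% against 3.66%, the CArG box at 4.53% against 1.61%, and the TATA word is lower in member promoters.

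Before any comparison between stages, the libraries differed in depth, number of peaks and estimated fragment length. The SRF libraries held 2394854 to 12103611 tags in OL and 9054483 to 20303444 tags in OPC. OL replicate 2 stood apart, with 47 peaks and a fragment length estimated by the authors' peak caller at 296 bp, against 72 to 86 bp in the other SRF libraries. The estimates of 72 to 86 bp lie near the read length of 75 bp, and whether they measure fragment size was not tested. OPC replicate 4 had the most peaks, 714. Member regions held a median of 2 to 18 reads in OL libraries and 15 to 25 reads in OPC libraries. In OL replicate 2, 417 of the 457 members had fewer than 10 reads, and 94 had no read.

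The members were concentrated just upstream of the TSS. The median distance of the region centre to the TSS was −80 bp (quartiles −181 and −13, range −996 to 932), and 359 regions (78.6%) were centred upstream. Within 100 bp of the TSS lay 201 regions (44.0%), within 250 bp 330 (72.2%) and within 500 bp 415 (90.8%), and 218 regions (47.7%) spanned the TSS itself. The fullest interval of 100 bp ended at the TSS and held 164 regions, and the next one upstream held 89. Just inside the limit lay regions at Siah3 (−996 bp), Arc (−954 bp) and Tfap4 (932 bp), and just outside it regions at Wnk1 (−1031 bp), Ddx25 (−1043 bp) and Zdhhc14 (−1065 bp). Wnk1, a kinase of ion transport, was called in 5 libraries, whereas the other 5 of these regions were called in 1 or 2.

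Among members called in at least 5 libraries, those at Egr2 (0 bp), Bod1 (−5 bp), Zfp949 (−7 bp) and Nudt13 (−10 bp) were centred nearest to a TSS. By the authors' annotation 416 members were promoter-TSS, 22 intronic, 17 exonic and 2 at a transcription termination site. The region of Fam53c was of the last kind, at chr18:27558188-27558685 in Rnor_6.0, centred 347 bp downstream of the gene's TSS.

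Member regions were wider than the other regions. Their median width was 197 bp (range 72 to 1145), against 142 bp in the other regions (range 72 to 1319), and the upper quartile was 296 bp, against 247.5 bp. Gsk3a (1145 bp), Rnf44 (909 bp) and Egr1 (806 bp) had the widest members, and Ubr4 (72 bp), Kpna3 (72 bp) and Atp5o (73 bp) the narrowest. Width followed reads across the quartiles of members, with a median of 353 bp in the top quartile by reads, then 236, 156 and 96 bp. The narrowest widths lie within the 72 to 86 bp that the peak caller estimated as fragment length in SRF libraries except OL replicate 2. In OL replicate 2 that estimate was 296 bp. Whether the estimate limits how narrow a region can be, and its part in these widths, were not tested. Regions with fewer reads lay closer to the TSS, with a median absolute distance of 147, 128, 122.5 and 93 bp over the same quartiles.

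The members differed widely in how many libraries called them. A call in a library means that the region shares at least 1 bp with a peak of that library. Of the 457 members, 163 (35.7%) were called in 1 library, 294 (64.3%) in at least 2, 150 (32.8%) in at least 5 and 20 in all 7. Of the other regions, 182 (46.5%) were called in at least 2 libraries and 66 (16.9%) in at least 5. OPC replicate 4 alone accounted for 118 of the 163 members with 1 call, followed by OPC replicate 1 with 19, OL replicate 1 with 17 and OPC replicate 3 with 9. No member overlapped a peak of an IgG library (0 of 457, which allows a share of up to 0.656%), against 34 of the 391 other regions (8.70%). The OL IgG library held 1551203 tags and 24 peaks, and the OPC IgG library 11308414 tags and 117 peaks. The limit refers to these few peaks, and IgG signal too weak to be called at members was not tested.

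The 20 members called in every SRF library were at Gsk3a, Egr1, Banp, Prcc, LOC100911959, Ncln, Rnf44, Mmachc, Ccdc90b, Maf1, Fam168a, Bod1, Actb, Cdc73, LOC688176, Gmpr2, Egr2, Dync1i2, Aak1 and RGD1311517. The most frequent pattern among members with several calls was a call in every library except OL replicate 2, with 74 members. A call in every library except OL replicates 2 and 4 followed with 46 members. In all, 243 members (53.2%) were called in both stages, against 138 of the other regions (35.3%). In OL libraries alone 17 members (3.72%) were called, against 46 of the other regions (11.8%), and in OPC libraries alone 197 members (43.1%), against 207 of the other regions (52.9%). With calls in at least 2 libraries these numbers were 0 against 1 in OL alone, and 51 against 43 in OPC alone.

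**Figure D2:**
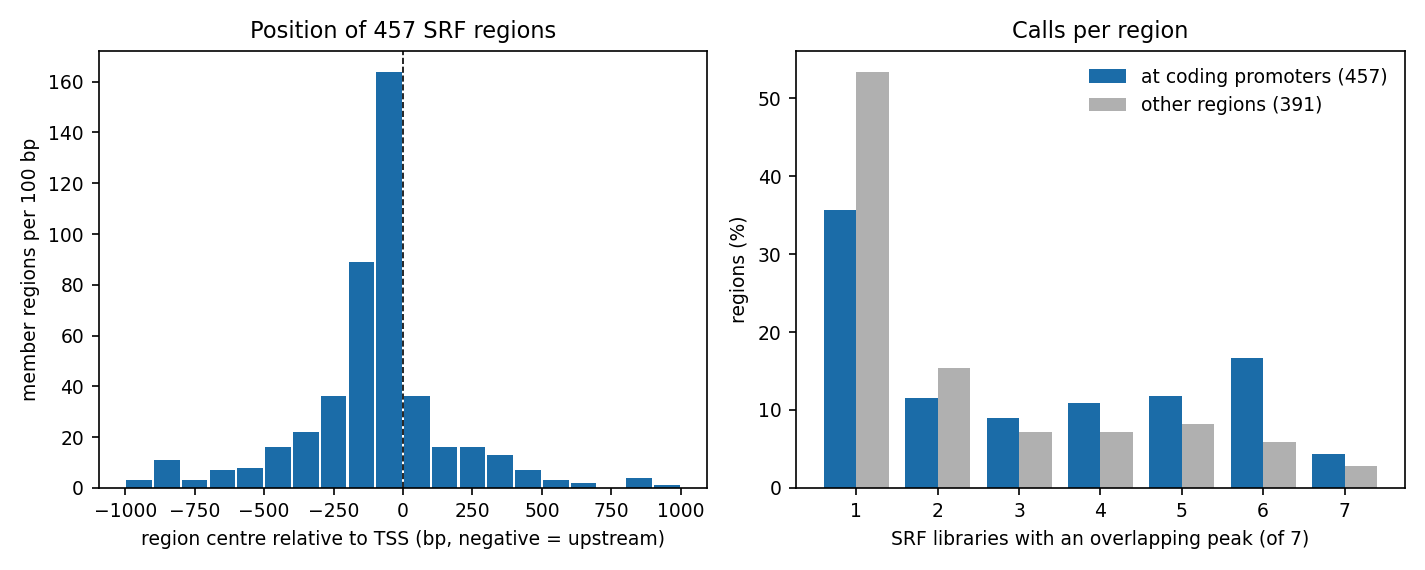
Left, number of the 457 member regions per 100 bp of distance from region centre to TSS (negative values upstream; dashed line, TSS). Right, share of regions (percent) by the number of SRF libraries with an overlapping peak, for 457 members (blue) and 391 other regions (grey). The interval of 100 bp ending at the TSS holds 164 members, and members with 1 call make up 35.7%, against 53.5% of the other regions.

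By total reads, members were 5 of the top 10 regions, 8 of the top 20 (40%), 22 of the top 50 (44%), 52 of the top 100 (52%) and 237 of the top 400 (59.3%), against 53.9% of all regions. Among the top 100 of each library (ties kept), 54.9%, 36.7% and 46.2% were members in OL replicates 1, 2 and 4, and 53.5%, 52%, 48.5% and 59.4% in OPC replicates 1 to 4. OL replicate 2 was the lowest library and OPC replicate 4 the highest. Per length the members held more reads than the other regions of the same library: the median of log2 reads per kb (0.5 read added) was higher by 0.15 on average over the 7 libraries, in 6 of 7 libraries (exact sign-flip test over libraries, two-sided p = 0.0313, smallest possible 0.0156). The exception was OL replicate 2, with a difference of −0.10. The difference missed the threshold of the same exact test in 6 of the 7 sets that leave out 1 library (p = 0.0625 in each), and was 0.043 with regions near TSSs of any gene type as members (p = 0.484). This test took the libraries as independent, although OL and OPC libraries can share a preparation, so its p may be too small.

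Within each library, the peaks at protein-coding promoters also had a higher fold enrichment over input than the library's other peaks. The difference of the medians, on the log2 scale of the authors' deposited fold enrichment, was 0.28, 0.21 and 0.26 in OL replicates 1, 2 and 4, and 0.28, 0.08, 0.17 and 0.53 in OPC replicates 1 to 4. All 7 values were positive, with a mean of 0.26 (exact sign-flip test, two-sided p = 0.0156, the smallest that 7 libraries can give). The test took the 7 libraries as independent, although OL and OPC libraries can share a preparation, so its p may be too small. OPC replicate 4 had the largest difference and OPC replicate 2, the deepest library, the smallest.

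The 12 members with the most normalised reads (reads divided by TMM-scaled library size, so that levels compare a region with the other regions of its library) belonged to genes of diverse function. Gsk3a, at chr1:82108053-82109197, encodes glycogen synthase kinase 3 alpha, a kinase of insulin and Wnt signalling. Its region held 376, 468 and 376 normalised reads in OL replicates 1, 2 and 4, against 318, 310, 320 and 313 in OPC replicates 1 to 4. All OL values lay above all OPC values, and the log2 fold change of OL over OPC was 0.36 ± 0.27 (SE; edgeR quasi-likelihood test, adjusted p = 0.532). Such separation is described for single regions here and below, and its frequency over all tested regions is not given. Regions chosen by a small p tend to show it. Gsk3a had the most reads of all 848 regions in OL replicate 1 and in the 4 OPC libraries, and was the fourth and the third in OL replicates 2 and 4.

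Egr1, at chr18:27656864-27657669, held 179, 353 and 242 normalised reads in OL and 163, 177, 148 and 160 in OPC. OL replicate 2 was the highest library, and all OL values exceeded the OPC values (log2 fold change 0.63 ± 0.27, edgeR adjusted p = 0.203). Banp, whose product binds methylation-sensitive CpG-rich promoter elements, held 198, 195 and 228 in OL and 190, 196, 177 and 166 in OPC, with overlapping groups. Prcc held 217, 164 and 217 in OL and 163, 186, 161 and 159 in OPC, again with overlap.

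Mmachc, an enzyme that processes vitamin B12, held 138, 140 and 141 normalised reads in OL and 93.7, 93.3, 103 and 105 in OPC. These groups did not overlap, and the log2 fold change was 0.50 ± 0.18 (edgeR adjusted p = 0.133). The other members of the 12 were LOC100911959, Ncln (an endoplasmic reticulum membrane protein), Rnf44 (a RING finger protein), Ccdc90b (a mitochondrial protein), Maf1 (the repressor of RNA polymerase III), Ints9 (a subunit of the Integrator complex) and Hsph1 (a chaperone of the HSP110 class). Their log2 fold changes ran from −0.31 in LOC100911959 to 0.57 in Hsph1, and none passed the test.

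The member genes were spread over many families, with immediate early transcription factors the most represented. Of the 20944 named protein-coding genes in RefSeq, 418 (2.00%) were member genes. Among the Egr, Fos, Jun, Klf, Atf and Nr4a factors, 7 of 39 (17.9%) were: Egr1, Egr2, Egr3, Egr4, Fos, Fosb and Fosl1. The longer list of immediate early and growth factor response genes held 10 of 60 (16.7%), adding Arc, Dusp5 and Srf itself. Actin cytoskeleton and adhesion genes held 9 of 100 (9%), which were Actb, Actg1, Cap1, Capzb, Cnn2, Fermt2, Myl12a, Vcl and Wdr1.

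Families of basic cell function followed. Mitochondrial ribosome, respiratory chain and import genes had 14 of 227 (6.17%), among them Uqcr10, Mrpl34, Mrpl50 and Mrpl19. Chromatin genes had 9 of 160 (5.63%), with Smarcal1, Phf23, Phf12 and Phf13 at the top, and splicing and mRNA processing genes 11 of 205 (5.37%), led by Prcc and Ddx23. Chaperones and translation factors with tRNA synthetases each had 6 of 118 (5.08%), represented by Hsph1 and Dnajb12 and by Eif2b4, Pabpc1 and Lars. General transcription and Mediator genes had 6 members (4.88%), including Tceb1 (elongin C), and vesicle and lysosome genes 11 of 229 (4.80%), including Lamtor2, Snx27 and Ap2s1. Genes with cell cycle and DNA repair symbols had 9 of 215 (4.19%), among them Cdc73, Cdk5, Bub1b and Bub3. This family is a pattern of symbols and also takes in genes of other function, such as Cdc73 of the PAF1 complex. Signalling kinases and phosphatases had 12 of 319 (3.76%), among them Gsk3a, Stk25 and Ppp6c.

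Other families were near or under the share of all genes. Ubiquitin and proteasome genes had 12 of 448 (2.68%), Tmem and Fam genes 10 of 372 (2.69%), numbered zinc finger genes 10 of 469 (2.13%), small GTPase genes 4 of 249 (1.61%) and solute carriers 4 of 384 (1.04%). Cytosolic ribosomal protein genes had 2 of 211 (0.948%), Rpl15 and Rpl23a. Histones (0 of 75), olfactory and vomeronasal receptors (0 of 269) and keratins (0 of 99) had none. Of 44 myelin and oligodendrocyte differentiation genes 0 were member genes, of 39 markers of other brain cell types 0, and of 36 OPC identity and proliferation genes 1, Birc5 (survivin, an inhibitor of apoptosis), called in 1 library. A count of 0 allows up to 3 genes, and 2.00% of all named genes were member genes. A count of 0 among 44 or 39 genes therefore does not show that SRF is absent from such promoters. Of 13 genes for SRF and its cofactors, Srf was the 1 member gene.

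**Figure D3:**
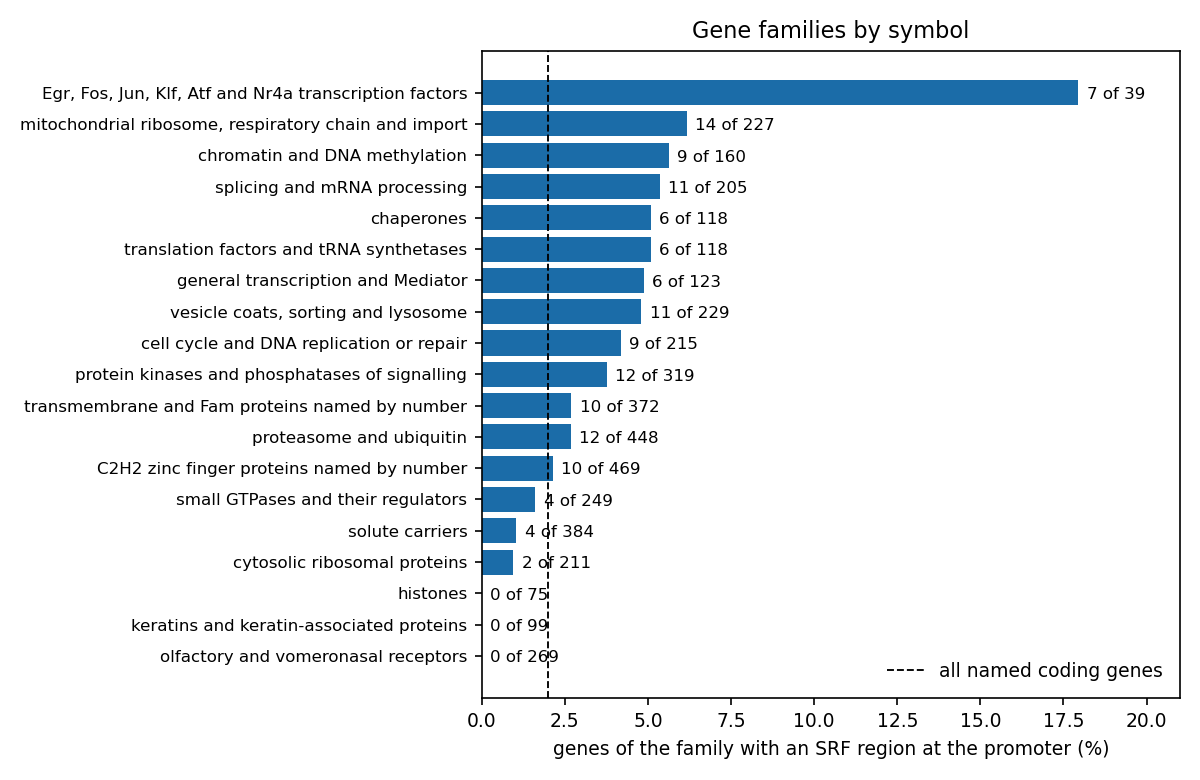
Share of each gene family's named genes (percent, horizontal axis) that have an SRF region within 1000 bp of the TSS, with the count beside each bar. The dashed line marks the share of all named protein-coding genes, 2.00%. Immediate early transcription factors stand at 17.9% (7 of 39), and histones, keratins and receptors of the olfactory families at 0.

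Thap11 was 1 of the 19 genes with 2 member regions, and is named here after its values were seen because its product is reported to act at the ACTACAA element. Its regions lay 335 bp and 74 bp upstream of the TSS and were called in 4 and 2 libraries. The 2 regions of Actb were centred at −806 bp and 75 bp and were called in 7 and 6 libraries. Ppp1r12c, a myosin phosphatase subunit, had regions at −672 bp and −242 bp called in 4 and 5 libraries, and Phf12 regions at −897 bp and −153 bp called in 6 and 2. Clpb, Unk and Kbtbd6 each had a region called in 6 libraries and another called in 1.

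The number of members called per library was lower in OL but the groups overlapped. It was 259, 23 and 104 in OL replicates 1, 2 and 4, against 277, 152, 237 and 406 in OPC replicates 1 to 4. The mean was 129 ± 120 in OL and 268 ± 106 in OPC (SD, n = 3 and 4), a difference of −139 (exact permutation test, two-sided p = 0.171, smallest possible 0.0286). Without OL replicate 2 the difference was −86.5. The calls moved with depth within OL, where replicate 1 had 12103611 tags and replicates 2 and 4 had 2394854 and 3363937, but not within OPC, where replicate 4 had the fewest tags and the most calls; the part of depth was not tested.

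The share of each library's peaks that lay at protein-coding promoters was 61.5%, 48.9% and 62.8% in OL and 65.5%, 69.0%, 64.0% and 57.0% in OPC. In the IgG controls it was 1 of 24 peaks (4.17%) in OL and 1 of 117 (0.855%) in OPC. The stages overlapped, with a difference of −6.13 percentage points (exact permutation test, two-sided p = 0.286), and of −1.73 without OL replicate 2.

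Of the reads in all 848 regions, members held 55.9%, 38.0% and 46.0% in OL and 55.9%, 52.0%, 53.7% and 59.4% in OPC. OL replicates 2 and 4 lay below every OPC library and OL replicate 1 among them (difference −8.65 points, exact permutation test, two-sided p = 0.114), and the difference was −13.3 without OL replicate 1 and −4.34 without OL replicate 2. Reads in regions that overlap an IgG peak moved the other way, with 12.9%, 31.4% and 24.1% in OL and 12.4%, 16.1%, 14.6% and 8.18% in OPC. Restricted to regions called in at least 2 SRF libraries and in no IgG library, the members' share was 70.2%, 62.5% and 67.3% in OL and 69.5%, 68.8%, 69.2% and 70.3% in OPC.

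As a share of all tags, members held 0.121%, 0.0709% and 0.0985% in OL and 0.119%, 0.0603%, 0.106% and 0.225% in OPC (exact permutation test, two-sided p = 0.657). OPC replicate 4 was the highest and OPC replicate 2 the lowest. The difference of −0.0306 percentage points became 0.00187, with the opposite sign, without OPC replicate 4, and was −0.0530 without OPC replicate 2 and −0.0177 without OL replicate 2.

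Promoter peaks lay farther from the TSS in OL replicates 2 and 4 than in any OPC library, and OL replicate 1 lay among the OPC libraries. The median absolute distance to the TSS was 125.5, 295 and 150.5 bp in OL, against 135 bp or less in each OPC library (difference 61.2 bp, exact permutation test, two-sided p = 0.114). Without OL replicate 2, which had 23 promoter peaks, the difference was 8.88 bp, and without OL replicate 1 it was 93.6 bp.

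**Figure D4:**
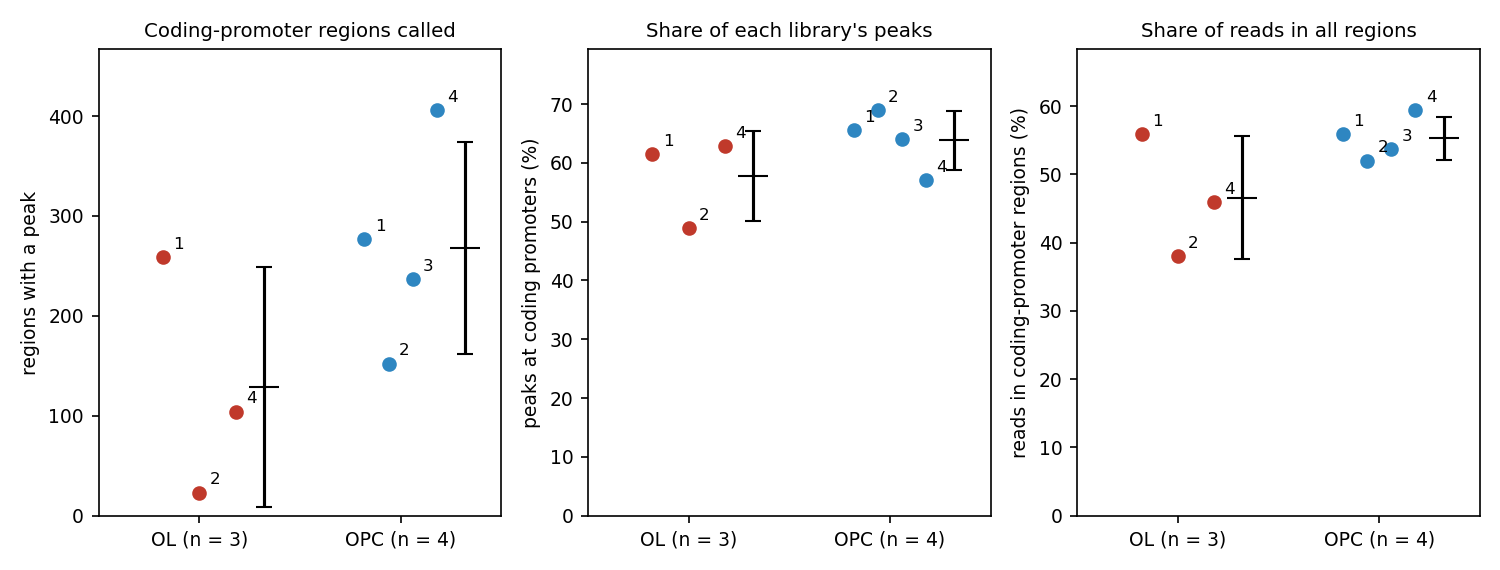
Values of each SRF library (points, labelled by replicate number) for OL (red, n = 3) and OPC (blue, n = 4); the black bar is mean ± SD. Left, number of the 457 member regions with a peak; middle, percent of the library's peaks at protein-coding promoters; right, percent of reads in all regions that fell in members. OL replicate 2 is the lowest library in every panel, at 23 regions, 48.9% and 38.0%.

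Region by region, few members differed between stages. The test took the 557 regions that reached 10 reads in 3 or more libraries, and 328 of them were members; 2 of these 328 (0.610%) passed an adjusted p of 0.05 in the edgeR quasi-likelihood test, against 12 of all 557 (2.15%). None of the members was higher in OL, where 2 of all regions (0.359%) were, and 2 were lower, where 10 of all regions (1.8%) were. At an unadjusted p under 0.05 there were 44 members (13.4%), against 21.9% of all tested regions. The median log2 fold change of OL over OPC was −0.04 in members, 0.08 in the other tested regions and −0.01 in all. This scaling takes out any shift shared by all regions. With libraries scaled to all tags, the median was −0.40 in members and −0.35 in all regions, and 0 members passed. The read filter bounds the counts per direction. Fewer than 10 reads were held by 417 members in OL replicate 2 and 351 in OL replicate 4. A member with reads in OL alone could thus rarely enter the test. Without the filter, 0 of 457 members passed as higher in OL and 3 as lower, against 8 and 14 of all 848 regions.

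With the preparation as a replicate block, 0 members passed (0% of all tested regions), and 29 members (8.84%) had an unadjusted p under 0.05, against 19% of all tested regions. DESeq2 on the same counts passed 5 members as higher in OL (Actb, Cdc73, Egr2, Prkab2 and Vrk1), against 6.28% of all tested regions, and 4 as lower (Fam53c, Retsat, Ufd1l and Ufsp2), against 2.51%. The share of members called was below that of all tested regions under each of these rules except those that called 0 regions, and the difference in shares was not tested.

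Fam53c was the member with the smallest p. Its region held 18.5, 18.2 and 27.6 normalised reads in OL and 54.2, 45.3, 47.3 and 58.9 in OPC. All OL values lay below all OPC values, and the region was called in 1 OL and all 4 OPC libraries. The log2 fold change was −1.33 ± 0.22 (SE; edgeR adjusted p = 0.0165); with the replicate block it was −1.36 (adjusted p = 0.0774). The CArG box shown for Fam53c starts 35 bases before the TSS in GRCr8, whereas the region was centred 347 bp downstream of it in Rnor_6.0. Without OL replicate 1, OPC replicate 1 or OPC replicate 4 its adjusted p was 0.0768, 0.0572 and 0.0515.

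RGD1562987, the other member past the threshold, held 1.6, 6.08 and 3.45 normalised reads in OL and 11.6, 12.7, 15.2 and 12.9 in OPC. In raw counts this was 2, 1 and 1 reads in OL, so the region entered the test through its OPC reads alone, and it was called in 1 library. The groups did not overlap (log2 fold change −2.39 ± 0.47, edgeR adjusted p = 0.0355, and 0.10 with the replicate block). The call was lost without OL replicate 1 (edgeR adjusted p = 0.297), OL replicate 4 (0.0689), OPC replicate 1 (0.0514), OPC replicate 2 (0.0577) or OPC replicate 4 (0.0515).

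The 5 members with the smallest p among positive changes did not pass the edgeR test. The upstream region of Actb, which encodes beta-actin, held 78.6, 128 and 82.8 normalised reads in OL and 54.2, 58.9, 43.7 and 49.9 in OPC, with no overlap (log2 fold change 0.82 ± 0.21, edgeR adjusted p = 0.0699). Without OL replicate 1 the value was 1.00 and passed, at an adjusted p of 0.0341. Vrk1, a kinase of histone H3, held 70.6, 42.6 and 65.6 in OL and 39.5, 31.7, 34.8 and 44.3 in OPC, where OL replicate 2 fell within the OPC range (0.75 ± 0.20, edgeR adjusted p = 0.0779).

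Cdc73, a subunit of the PAF1 complex that travels with RNA polymerase II, held 39.3, 85.1 and 41.4 normalised reads in OL and 21.7, 23.5, 27.6 and 29.7 in OPC. Its groups did not overlap, and OL replicate 2 was highest (log2 fold change 0.90 ± 0.27, edgeR adjusted p = 0.105). Tada3, an adaptor of histone acetyltransferase complexes, held 17.7, 18.2 and 24.2 in OL and 8.52, 4.53, 12.5 and 8.42 in OPC, without overlap (1.16 ± 0.35, adjusted p = 0.107 by the same test). Egr2, a factor known for its role in Schwann cell myelination, held 74.6, 91.2 and 82.8 in OL and 44.1, 67.0, 34.8 and 45.4 in OPC, also without overlap (0.76 ± 0.23, edgeR adjusted p = 0.107).

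**Figure D5:**
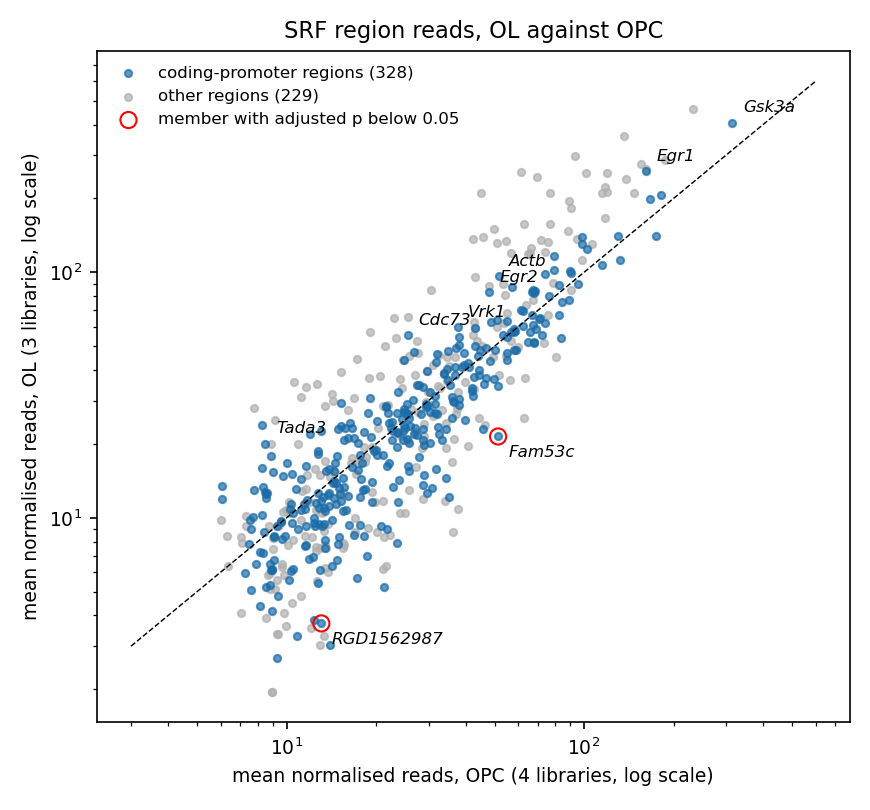
Mean normalised reads of 557 tested regions in OL (vertical axis, 3 libraries) against OPC (horizontal axis, 4 libraries), both on log scales; members in blue (328), other regions in grey (229), dashed line at equality. Red circles mark Fam53c and RGD1562987, the 2 members that passed, both below the line. Gsk3a is the member with the most reads.

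The immediate early members all had positive log2 fold changes, without any passing the test. Of the 10 member genes of that list, 8 were tested, with a median of 0.45 against −0.01 for all tested regions and 0 passed. Fosb held 29.7, 91.2 and 20.7 normalised reads in OL and 25.5, 36.2, 22.3 and 23 in OPC, with OL replicate 2 far above the other libraries. Dusp5 held 41.7, 42.6 and 34.5 in OL and 28.6, 40.7, 23.2 and 25.8 in OPC, with OPC replicate 2 inside the OL range. Srf held 24.1, 54.7 and 13.8 in OL and 25.5, 24.4, 11.6 and 14.6 in OPC, and Egr3 held 18.5, 24.3 and 20.7 in OL and 18.6, 19.9, 12.5 and 16.3 in OPC, both with overlap. Without OL replicate 2 the list's median was 0.19, and with libraries scaled to all tags 7 of 8 were positive, with a median of 0.24 against −0.35 for all. The highest median with 1 library left out was 0.65, without OL replicate 1.

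Of the 10 regions at 9 actin and adhesion genes, 7 were tested, 6 had positive values, the median was 0.56 and 0 passed. Wdr1, a cofactor of cofilin in actin disassembly, held 23.3, 30.4 and 34.5 normalised reads in OL and 15.5, 19.9, 13.4 and 12.3 in OPC, with no overlap (log2 fold change 0.83 ± 0.28, edgeR adjusted p = 0.111). Cnn2 held 16.1, 42.6 and 10.4 in OL and 9.29, 22.6, 14.3 and 13.5 in OPC, with overlap. Vcl (vinculin, which links actin to adhesions) held 13.6, 6.08 and 10.4 in OL and 17.8, 11.8, 9.81 and 10.1 in OPC, the 1 tested region of the list with a negative value, −0.02. Actg1, with 15, 7 and 4 raw reads in OL and 9, 4, 6 and 14 in OPC, was too low to be tested.

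Grouped by promoter word, the tested members with a CArG box stood above the rest. Of 12, 11 had a positive log2 fold change (the exception was Fam53c) and the median was 0.34; of 264 tested members without one, 117 (44.3%) were positive and the median was −0.06. The 92 tested members with ACTACAA had a median of −0.04, 42 were positive and 0 passed. With libraries scaled to all tags, 8 of the 12 members with a CArG box were positive and the median was 0.20. Their median was 0.63 without OL replicate 1 and 0.54 without OPC replicate 2, and 0.25 at the lowest, without OPC replicate 1. Without OL replicate 4, 9 of 12 were positive, as with OL replicate 1 alone against OPC (median 0.19). The median with ACTACAA was −0.20 without OL replicate 1. Within the reads of members that have a promoter in the table, those with a CArG box made up 5.97%, 9.69% and 7.25% in OL and 5.37%, 6.35%, 5.03% and 5.62% in OPC, where OL replicate 1 fell within the OPC range. The tested members with a CArG box include Egr1, Egr2, Dusp5, Srf and Cnn2 of the immediate early and actin lists, so their values are not separate from those lists. These groups were described and not tested.

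In most families of basic cell function the medians were below that of all tested regions, from few regions each. They were −0.15 for the 7 tested mitochondrial regions, −0.17 for 8 chromatin regions, −0.12 for 5 translation regions, −0.32 for 5 chaperone regions, −0.29 for 7 vesicle and lysosome regions and −0.68 for 3 general transcription regions. They were 0.00 for 12 kinase and phosphatase regions, 0.02 for 7 regions with cell cycle symbols (Cdc73 among them) and 0.12 for 3 splicing regions. Several of these moved when 1 library was left out. Without OL replicate 1 the medians were −0.54 (mitochondrial), −0.19 (translation), −0.32 (kinases and phosphatases) and −0.13 (cell cycle). Without OL replicate 2 they were −0.02 (mitochondrial), −0.06 (chromatin), −0.19 (chaperones) and 0.20 (splicing). The translation median was 0.09 without OPC replicate 1, with 3 of 5 positive, and −0.32 without OPC replicate 3. The cell cycle median was 0.20 and that of kinases and phosphatases −0.17 without OPC replicate 4. Of the Tmem and Fam genes Fam53c passed, and no member of the other families did. Eif2b4, a subunit of the exchange factor of translation initiation, held 69.0, 30.4 and 62.1 normalised reads in OL and 83.6, 85.1, 91.8 and 72.9 in OPC, with no overlap (log2 fold change −0.50 ± 0.23, edgeR adjusted p = 0.240). Mrpl19, of the mitochondrial ribosome, held 28.9, 18.2 and 27.6 in OL and 37.2, 38.0, 46.4 and 37.6 in OPC, likewise without overlap (−0.56 ± 0.21, adjusted p = 0.146 by the same test).

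Members called in at least 2 OPC libraries and in no OL library numbered 51 (11.2%), close to the 43 of the other regions (11%). The 5 with the most reads were at RGD1309036, RGD1564379, Esf1, RGD1311783 and RGD1560010. Being chosen by calls in OPC alone favours lower reads in OL, so their values are no separate evidence of a stage difference. Esf1, a nucleolar protein of ribosome biogenesis, held 14.4, 6.08 and 17.3 normalised reads in OL and 41.0, 26.3, 28.5 and 22.4 in OPC. These values did not overlap, and the log2 fold change was −1.07 ± 0.34 (edgeR adjusted p = 0.107). RGD1309036 held 20.9, 24.3 and 17.3 in OL and 26.3, 27.2, 28.5 and 33.1 in OPC, again lower in every OL library, with a value of −0.49 ± 0.23 (edgeR adjusted p = 0.245). All 5 had reads in every OL library, none passed the test, and no member was called in at least 2 OL libraries alone.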

How the data were processed

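SRF and IgG chromatin immunoprecipitation was sequenced as single reads of 75 bp after 7 shearing cycles and 12 PCR cycles, per the labels' protocols. Per the submitters' processing notes, Trim Galore, BWA, MACS2, HOMER and deepTools were used with the build Rnor_6.0. Treatment of duplicates before peak calling is not given in the sources used here. Peaks were called in each library with MACS 2.2.7.1 at a q-value threshold of 0.05, per the file headers. The deposited peak tables give a pileup signal, a fold enrichment ratio over input and the −log10 of the p-value and q-value, and these authors' values served only within their own library. The deposited counts are whole reads per consensus region, not normalized, made by the authors with featureCounts 2.0.1, per the file headers. Tags are the totals in the peak table headers. Intervals and limits cover counting error only, since PCR copies are not independent molecules.

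The 557 regions that reached 10 reads in 3 or more libraries entered edgeR 4.0.16 (R 4.3.3; TMM over the regions, quasi-likelihood test of OL against OPC, Benjamini-Hochberg over all tested regions), with DESeq2 1.42.0 as an alternative. Tested on simulated data for the OL against OPC comparison (550 regions), the fit found 9 of 46 regions with a 1.5-fold change, 20 of 40 with a 2-fold change and 46 of 48 with a 4-fold change, and passed 2 of 416 without change. Single values of the libraries went into exact permutation and sign-flip tests, computed over all arrangements. Per the labels' protocols the plates of a preparation were shared out to both stages, so replicate numbers 1, 2 and 4 were taken to pair OL with OPC; deviations from the group means correlated at 0.11, 0.26 and 0.17 for these numbers across tested regions, and at 0.059, 0.13 and 0.042 across members, while OL replicate 1 correlated at 0.22 with OPC replicate 4 across tested regions, above its own number. OL replicate 4 is the library whose file carries another number, and the label was followed.

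The members, gene lists, families, motifs and tests were chosen with earlier results of these data known. Families are patterns of gene symbols. The named members are the 12 with the most normalised reads, the smallest p per direction, the leading members of each list and family, those just inside and outside 1000 bp, genes with 2 regions, members called in 1 stage, the widest and narrowest, and those nearest to a TSS; others are said to be chosen after their values were seen or stand in a full count. Normalised reads are reads divided by the TMM-scaled region total relative to its mean over the 7 libraries, so that 1 read in OL replicate 2 is worth 6.08. Alternatives changed the scaling, the tool, the read filter, the definition of members, the peak threshold, the overlap, the pseudocount and the libraries used. The input libraries entered only through the authors' peak calls.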

Additional observations from a re-analysis of the deposited data

Results flagged for a closer look

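In 9 members, 1 of the 4 OPC libraries lay far from the other OPC libraries in normalised reads, by Dixon's test at the 95% level; chance flags about 1 in 20 groups, and 111 groups were tested. Prcc held 186 normalised reads in OPC replicate 2, against 159 to 163 in the other OPC libraries. Ints9 held 129 in OPC replicate 4, against 109 to 111. Mrpl19 held 46.4 in OPC replicate 3, against 37.2 to 38.0, Otud4 (a deubiquitinase) 21.4, against 13.5 to 13.9, and Polr1b (a subunit of RNA polymerase I) 19.6, against 10.9 to 11.8. On the low side, Smarcal1 (a DNA annealing helicase) held 73.3 in OPC replicate 2, against 92.9 to 95.4, and Bub3, of the spindle checkpoint, held 30.8 in the same library, against 45.5 to 47.2. Tceb1 held 22.5 in OPC replicate 1, against 26.8 to 27.2. Dennd1c held 1.12 in OPC replicate 4, from 2 reads, and 0 in the other OPC libraries. Of these 9 values, 3 were highest in OPC replicate 3 and 3 came from OPC replicate 2.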

How the results depend on the processing

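The count of members called between stages was the value most dependent on processing. It was 2 by edgeR, 0 with libraries scaled to all tags, 0 with the replicate block, 0 with OL replicate 1 alone against OPC, 9 by DESeq2, 5 with at least 20 reads in 3 libraries, 15 with only members tested, 1 with members called in at least 2 libraries and no IgG library, and 0 to 3 with 1 library left out. The median log2 fold change of members was −0.40 scaled to all tags, −0.12 without the filter on low counts, and between −0.178 and 1.95e-05 with 1 library left out. The excess of members over the rest in log2 reads per kb missed the threshold of the exact test for any gene type (0.043) and with a pseudocount of 1 (0.12, p = 0.0625). With 1 library left out that excess spanned 0.12 to 0.19. Each of these sets missed the threshold of the same exact test (p = 0.0625), except that without OL replicate 2. The members' share of tags spanned −0.0530 to 0.00187 percentage points with 1 library left out. The CArG share of member promoters was 12.3% with 1 inner mismatch. In the pairing by preparation, the replicate block gave −9.17 points for the share of region reads, −150 for members called and −6.09 points for the share of peaks, each on the same side of the threshold as without it. The other alternatives for values per library kept direction and side of the threshold. The OL libraries, with a median of 2 to 18 reads per member, limit what can be detected.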

Other observations

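Among members, those with the BANP element TCTCGCGA were few and had many reads. Banp encodes a factor that binds this element when it is unmethylated, and the Banp promoter region was itself the third member by normalised reads. The 7 member regions whose promoter holds the element had a median of 282 reads over the 7 libraries, and 5 of them (71.4%) were called in at least 5 libraries, against a median of 95 reads and 32.1% for the 371 without it. The 121 regions with ACTACAA had a median of 126 reads and 40.5% were called in at least 5 libraries, against 88 reads and 29.2% for the 257 without it. The 17 regions with a CArG box had a median of 107 reads and 41.2%. These are descriptions of regions in the same libraries, with no test.

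Members were found on 21 chromosomes, with 75 on chromosome 1, 38 on chromosome 10 and 7 on chromosome X. The regions of Fam53c and Egr1 both lie on chromosome 18, within the stretch 27558188 to 27657669 of Rnor_6.0, and had log2 fold changes of −1.33 and 0.63.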
